A study of Acomys cahirinus and Mus musculus with 10 samples.

Results

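Ear cartilage was followed through 10 genes, *Acan*, *Hapln1*, *Comp*, *Matn3*, *Chad*, *Col2a1*, *Col9a1*, *Col11a2*, *Col10a1* and *Sox9*, in the healing ears of the spiny mouse *A. cahirinus* and of *M. musculus*. The genes were listed by symbol, with earlier results of these data known, and make up 10 of the 24092 gene numbers in the *M. musculus* tables. In *A. cahirinus*, which was read against a transcriptome assembled from its own reads, each gene was taken as the assembly component (a cluster of related contigs) with the highest BLASTN bit score to the mouse gene, out of 676820 components. All 10 members had a value in both species and at every time point, and none was lost to a filter on low values.

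RNA was sequenced from ear tissue of uninjured animals (D0) and at D5, D10, D15 and D20 after a 4 mm through-and-through punch of the ear pinna. The *A. cahirinus* ears were labelled regenerating and the *M. musculus* ears fibrotic, and the animals were sexually mature females with 3 per species and time point. By the study's methods *M. musculus* was the outbred CD1 strain, and the labels name no allele or agent apart from the punch. The tissue was a ring at the healing margin that held cartilage, skin, muscle and fat together, so in these bulk samples fewer cartilage cells and less RNA per cartilage cell cannot be told apart.

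The ear pinna is stiffened by a plate of elastic cartilage. Its chondrocytes are held in their fate by the transcription factor SOX9 and sit in a matrix of thin fibrils of collagens II, IX and XI, filled with aggrecan that is bound to hyaluronan through link protein and bridged to the fibrils by matrilins, COMP and chondroadherin. Collagen X is best known from chondrocytes that enlarge before cartilage turns to bone.

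The deposited tables give each later day against D0 within a species, and the 4 comparisons of a species share their D0 libraries. Group means, in normalised reads per library on the scale of the D5 comparison, were recovered from the 2 deposited fold changes, and the reads of single libraries were solved at D0 and, for some genes, at later days. Over the features present in all 4 comparisons, the D0 libraries of *A. cahirinus* held 14888621 to 18659218 assigned reads. Those of *M. musculus* held 5922743 to 7873753. These sums are not the sequencing depth, since reads assigned to no such feature are left out. At D15 in *A. cahirinus*, where the design text gives 3 animals, low means fell in steps of 2 sizes, those of 2 libraries. The means of all 267 features tried there were solved by reads of 2 libraries, so D15 was read as 2 distinct libraries. The solved reads do not depend on how often each library was entered. That 1 of them was entered 2 times was inferred from the group size of 3, and the library with the larger step was taken as that one. The normalised D15 values of the 2 libraries, and their order, depend on this choice. All these points are inferences, and the deposited call rests on 3 entries. In *M. musculus* at D15, 1 library was the lowest of the 3 for all 7 members whose libraries could be solved. At D0 in that species 1 library was the lowest for 8 of 10 members. In *A. cahirinus* at D15 the library taken as entered 2 times was the lower for 8 of 10. At D10 there, 1 library was the lowest for all 3 members solved. Library numbers carried no animal identity. The median log2 fold change of all features with a mean of at least 10 lay between -0.02 and 0.02 in the 8 comparisons.

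The *A. cahirinus* value for *Col2a1* rests on contigs of more than 1 gene. The component with the best match to *Col2a1* held 62 contigs with a hit, of which 40 matched both *Col2a1* and *Col5a3* (a minor fibrillar collagen chain of soft connective tissue), 1 matched *Col2a1* only and 21 matched *Col5a3* only. In a contig of 5586 bases, bases 17 to 2593 matched *Col2a1* at 91.21% identity and bases 2570 to 4235 matched *Col5a3* at 92.62%. The stretch of 120 contig bases around the change of gene is shown with the coding sequence of each mouse gene, with the 24 bases that were matched to both genes in capitals.

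*A. cahirinus* contig: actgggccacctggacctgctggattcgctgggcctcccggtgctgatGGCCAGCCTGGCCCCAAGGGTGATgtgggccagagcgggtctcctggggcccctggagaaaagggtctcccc
*M. musculus* Col2a1: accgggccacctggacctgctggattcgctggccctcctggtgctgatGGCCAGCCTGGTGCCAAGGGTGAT
*M. musculus* Col5a3: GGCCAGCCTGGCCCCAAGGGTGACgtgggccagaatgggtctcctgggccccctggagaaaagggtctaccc

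Left of the capitals the contig followed *Col2a1*, and right of them *Col5a3*. A separate component matched *Col2a1* without *Col5a3*. Its contig of 972 bases matched *Col2a1* at bases 91 to 646 with 91.37% identity, and a second stretch matched it at bases 661 to 958 with 91.28%. It also matched *Col1a1* (the chain of the type I collagen of skin) at bases 1 to 128 with 99.22% and at bases 186 to 321 with 87.59%. The part of *Col1a1* reads in this component was not tested.

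*Col11a2* had the same difficulty, since 84 of the 117 contigs with a hit in its component matched both *Col11a2* and *Col24a1*. For the other 8 members every contig with a hit matched the member best. Whether those contigs also matched a second gene was not counted, and a best match alone cannot show it. *Chad*, which fell at every time point in both species, is shown as an example with a component of 1 contig. A coding stretch of 120 bases is given, with the 9 differing bases in capitals.

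*A. cahirinus* Chad: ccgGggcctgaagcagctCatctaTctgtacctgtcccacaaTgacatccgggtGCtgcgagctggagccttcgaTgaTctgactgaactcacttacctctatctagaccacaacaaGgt
*M. musculus* Chad: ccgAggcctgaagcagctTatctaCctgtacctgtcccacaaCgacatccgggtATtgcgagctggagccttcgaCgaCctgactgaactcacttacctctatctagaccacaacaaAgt

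Most cartilage genes fell at D5 in both species, and the later course differed from gene to gene. The call of a change required a posterior probability of differential expression of 0.95 or more. In *A. cahirinus*, 8 members were called at D5 (1 higher and 7 lower), where 2.75% of all components were called, 1.78% higher and 0.978% lower. At D10, 7 were called (1 higher, 6 lower) against 2.16% of components, 1.28% higher and 0.88% lower. At D15, 5 were called (1 higher, 4 lower) against 2.44%, 1.33% higher and 1.11% lower. At D20, 8 were called (3 higher, 5 lower) against 1.85%, 0.948% higher and 0.9% lower. Most components had few reads, and among those with a mean of at least 10 the called share was 11.6%, 8.43%, 9.24% and 7.87% over the same days.

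In *M. musculus*, all 10 members were called at D5 (3 higher, 7 lower), where 30% of all genes were called, 16.5% higher and 13.6% lower. At D10, 8 members were called (3 higher, 5 lower) against 29.2% of genes, 15.1% higher and 14.1% lower. At D15, 7 were called (2 higher, 5 lower) against 25.7%, 13.2% higher and 12.5% lower. At D20, 6 were called (4 higher, 2 lower) against 24.2%, 12.3% higher and 11.9% lower. Among genes with a mean of at least 10 the called share was 43.3%, 41%, 36.8% and 34.7%. The median log2 fold change of the members was -1.20, -0.50, -0.45 and 0.22 in *M. musculus*, in the order of the days. The same medians were -1.04, -0.87, -0.68 and -0.85 in *A. cahirinus*. The median was thus above 0 at D20 in *M. musculus* and below it in *A. cahirinus*. The *A. cahirinus* medians read *Col2a1* from the component shared with *Col5a3*. Of the 7 members called lower at D5 in *M. musculus*, *Acan* (-0.67) and *Chad* (-1.81) were still called lower at D20. *Hapln1*, *Col10a1* and *Sox9* were below 0 without a call, and *Col9a1* and *Col11a2* were called higher. *Col2a1*, *Matn3* and *Comp* were above 0 there on every day. The difference between species was not tested, because the tables were normalised separately and the references differ in kind.

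**Figure D1:**
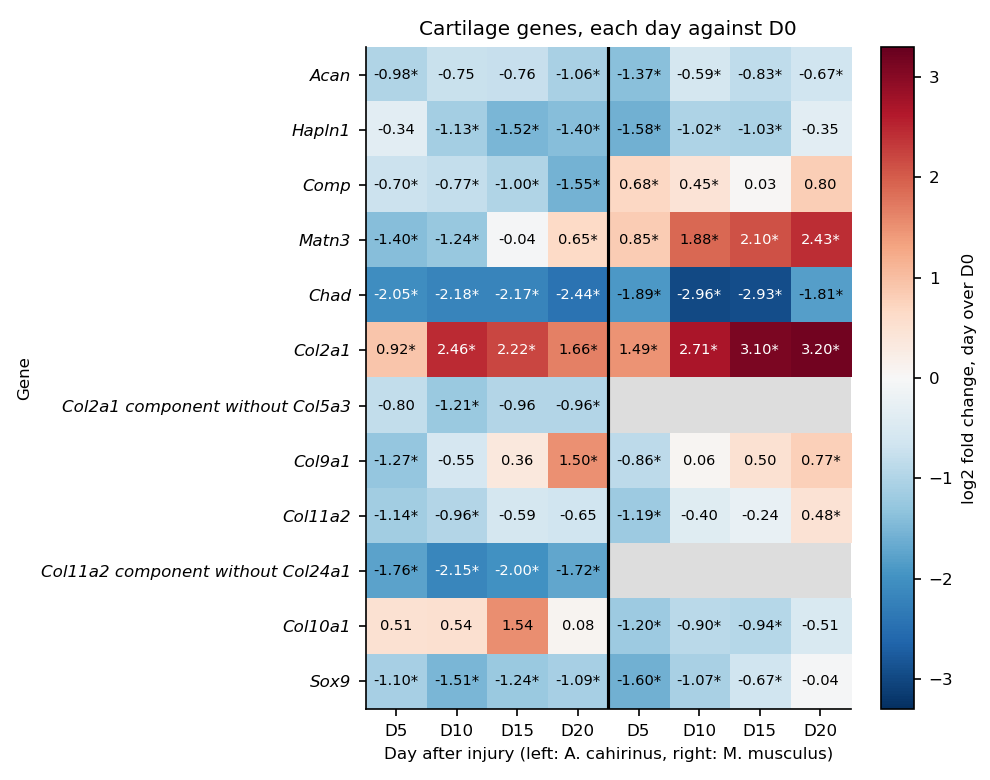
Log2 fold change of the 10 cartilage genes against D0 (colour and number, blue lower and red higher after injury) by time point, *A. cahirinus* left and *M. musculus* right, with an asterisk at a posterior probability of at least 0.95. Separate rows give the *A. cahirinus* components of *Col2a1* without *Col5a3* and of *Col11a2* without *Col24a1*. *Chad* is lower in all 8 comparisons, *Sox9* returns to -0.04 at D20 in *M. musculus* and is at -1.09 in *A. cahirinus* by its top-scoring component, and the high *Col2a1* values of *A. cahirinus* come from the component shared with *Col5a3*.

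*Acan* (GRCm38 chr7:79053483-79115099, plus strand), which encodes the core protein of aggrecan, was present in the D0 libraries of *A. cahirinus* at 5132, 4634 and 3621 normalised reads, with a mean of 4462 ± 770 (SD, n = 3). The 4 means after injury, from D5 to D20, were 2261, 2658, 2627 and 2133. The D15 libraries, at 2848 and 2517, were both below every D0 library. The log2 fold change was -0.98 at D5 and -1.06 at D20, both called, with posterior probabilities of 0.986 and 0.964, and -0.75 and -0.76 at D10 and D15, which were not called. In *M. musculus* the D0 libraries held 3274, 3436 and 4322 normalised reads. *Acan* fell there on all 4 days, with log2 fold changes of -1.37, -0.59, -0.83 and -0.67. The mean was lowest at D5, at 1419, and the later means were 2452, 2071 and 2316.

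*Hapln1* (chr13:89539796-89611652, plus strand), the link protein that fastens aggrecan to hyaluronan, was read from 2 components in *A. cahirinus*. In the one with the top score the D0 libraries held 239, 210 and 147 normalised reads and the D5 libraries 148, 168 and 153, so these groups overlapped and the log2 fold change of -0.34 was not called. The D10 libraries held 87.1, 88.9 and 95.7, the D15 libraries 70.2 and 68.5, and the D20 libraries 74, 85.9 and 64.7. All of these were below D0, and the log2 fold changes of -1.13, -1.52 and -1.40 were called. The second component, with a higher D0 mean of 496, was called lower on all 4 days, at -0.45, -0.81, -1.0 and -1.19. The *M. musculus* D0 libraries held 220, 280 and 253 and the D5 libraries 63.6, 79.7 and 108, with a called log2 fold change of -1.58. The decrease was called at D10 (-1.02) and D15 (-1.03), and at D20, when the libraries held 220, 151 and 218, the value of -0.35 was not called. The difference between the species was not tested.

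*Chad* (chr11:94565047-94569127, plus strand) encodes chondroadherin, a leucine-rich matrix protein to which chondrocytes attach. It was the member with the lowest mean log2 fold change over the 4 days in each species. In *A. cahirinus* the D0 libraries held 235, 209 and 221 normalised reads (mean 222 ± 13.2, SD, n = 3) and the D15 libraries 36.5 and 55. The called log2 fold changes were -2.05, -2.18, -2.17 and -2.44 at D5, D10, D15 and D20. In *M. musculus* the D0 libraries held 854, 1130 and 988, the D5 libraries 267, 300 and 233, and the D10 libraries 129, 132 and 120. The D15 libraries held 63.6, 154 and 173 and the D20 libraries 234, 368 and 246. Every library after injury was below every D0 library, and the called log2 fold changes were -1.89, -2.96, -2.93 and -1.81, with D20 higher than D10.

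*Comp* (chr8:70373558-70382066, plus strand), cartilage oligomeric matrix protein, is made by tendon cells and activated fibroblasts as well as by chondrocytes. In *A. cahirinus* the D0 libraries held 670, 809 and 704 normalised reads, the D5 libraries 534, 407 and 398, the D15 libraries 402 and 343, and the D20 libraries 251, 282 and 209. The D5, D15 and D20 libraries were all below the D0 libraries, those of D10 could not be solved, and the log2 fold changes of -0.70, -0.77, -1.0 and -1.55 were all called. The *M. musculus* D0 libraries held 446, 394 and 358, and the D5 libraries, at 614, 593 and 714, and the D10 libraries, at 552, 503 and 585, were all above them. The increases of 0.68 and 0.45 on the log2 scale were called. The D15 libraries held 228, 501 and 497, of which the lowest lay below D0 and the others above it, and the log2 fold change of 0.03 was not called. At D20 the value was 0.80 and was not called either, with a posterior probability of 0.357.

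*Matn3* (chr12:8947929-8972028, plus strand), matrilin 3, an adaptor between collagen fibrils and aggrecan, fell in *A. cahirinus* at D5 and D10 and rose by D20. Its D0 libraries held 64, 82.3 and 67.1 normalised reads, its D5 libraries 31.5, 22.4 and 26.6 and its D10 libraries 28.1, 31.8 and 29.7. The D15 libraries, at 95.9 and 55.6, lay on either side of D0, and the D20 libraries, at 90.5, 125 and 119, were above it. The log2 fold changes were -1.40 and -1.24, both called, then -0.04, not called, and 0.65, called. The posterior probabilities of the calls at D10 and D20 were 0.976 and 0.985. In *M. musculus* the D0 level was low, at 11.8, 23.3 and 20.9 normalised reads, and the D5 libraries held 40.1, 35.7 and 25.9. The D15 libraries held 58.9, 107 and 78.8 and the D20 libraries 93.2, 112 and 101, so that every solved library after injury was above D0. The called log2 fold changes were 0.85, 1.88, 2.1 and 2.43.

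**Figure D2:**
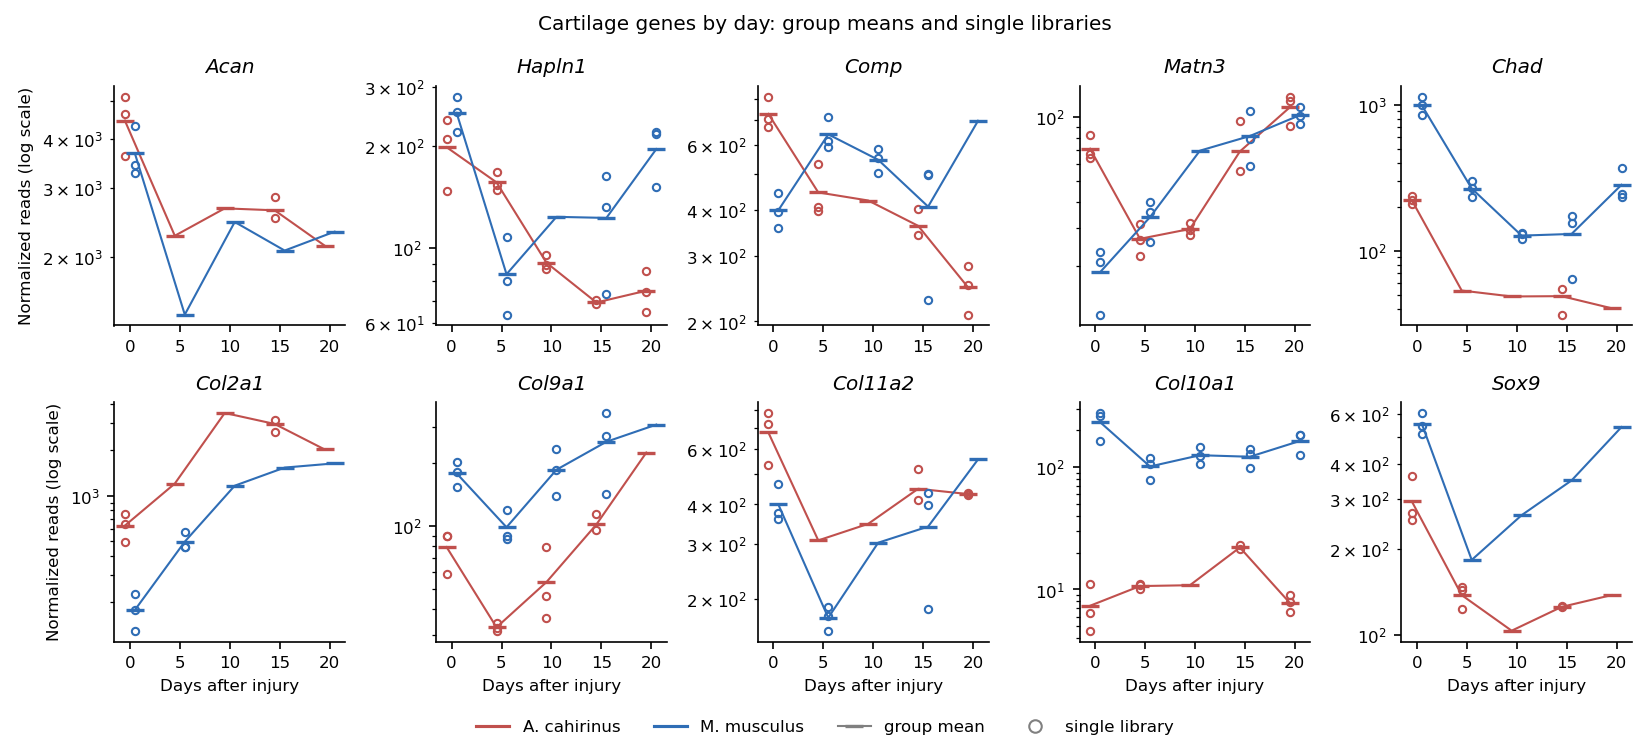
Normalised reads per library (open circles, log axis) and group means (bars joined by lines) of the 10 genes by day after injury, *A. cahirinus* in red and *M. musculus* in blue, with circles only where the reads of single libraries could be solved. The level of a gene cannot be set against that of the other species, since the references differ. The solved *Chad* libraries after injury lie below all D0 libraries in both species, while *Matn3* at D5 lies below D0 in *A. cahirinus* and above it in *M. musculus*.

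*Col2a1* (chr15:97975602-98004695, minus strand) encodes the chain of type II collagen, the main fibril of cartilage. In *M. musculus* the D0 libraries held 130, 177 and 226 normalised reads and the D5 libraries 462, 458 and 576, and all D5 libraries were above all D0 libraries. The mean went from 177 at D0 to 499, 1161, 1527 and 1627 at D5, D10, D15 and D20. The log2 fold changes of 1.49, 2.71, 3.10 and 3.20 were called. *Col2a1* was therefore the member with the largest increase in *M. musculus*, while *Acan* and *Chad* fell on the same days.

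In *A. cahirinus* the sign for *Col2a1* depended on the component read. The component shared with *Col5a3* held 649, 758 and 499 normalised reads at D0 and 2629 and 3113 at D15, with called log2 fold changes of 0.92, 2.46, 2.22 and 1.66. The component without *Col5a3* held 192, 201 and 126 at D0, 98.5, 88.5 and 110 at D5, 83.6, 72.2 and 67 at D10, 125 and 70.9 at D15, and 78.3, 103 and 84.5 at D20. Every library after injury was below every D0 library there, with log2 fold changes of -0.80, -1.21, -0.96 and -0.96, of which D10 and D20 were called and D5 and D15 had posterior probabilities of 0.891 and 0.859. In *M. musculus*, where the 2 genes are counted apart, *Col5a3* rose, with log2 fold changes of 2.45, 2.49, 2.70 and 2.47. The part of *Col5a3* reads in the rise of the shared component was not tested. With the components without *Col5a3* and without *Col24a1* used for *Col2a1* and *Col11a2*, the members called in *A. cahirinus* numbered 7, 7, 5 and 9 from D5 to D20, and those called higher 0, 0, 0 and 2.

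**Figure D3:**
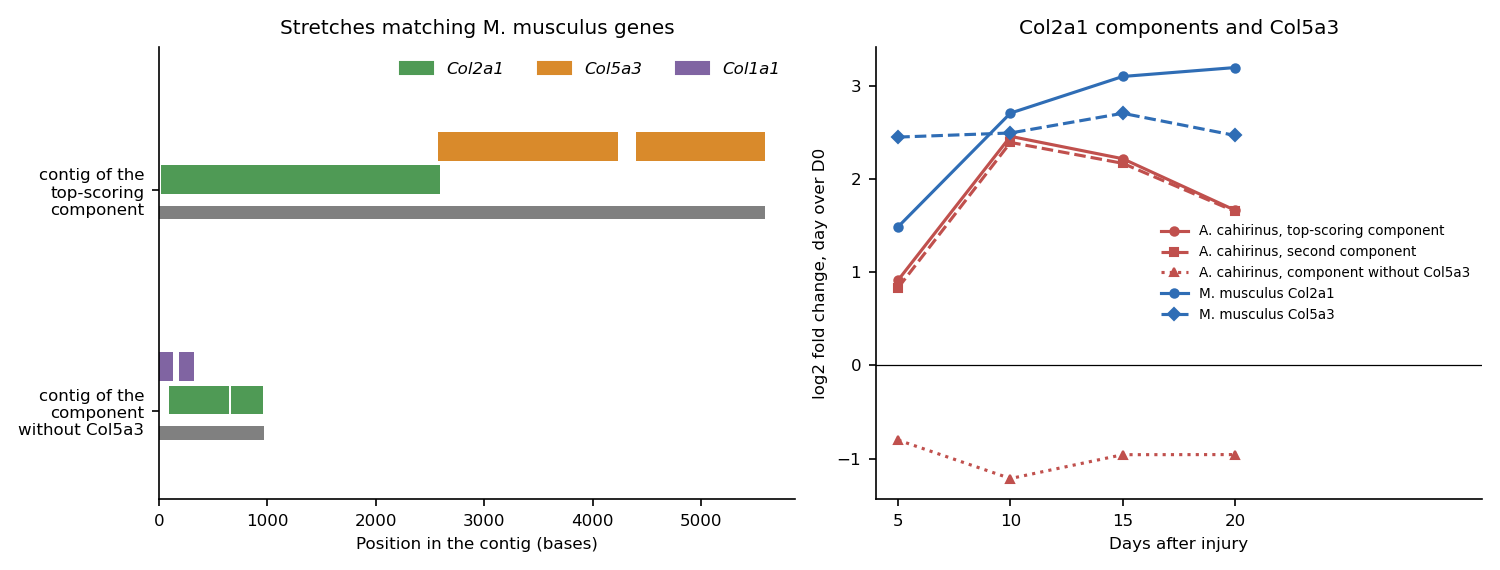
Left, 1 contig of the top-scoring *A. cahirinus* component and the contig of the component without *Col5a3* (grey bars, position in bases), with the stretches that match *M. musculus* *Col2a1*, *Col5a3* and *Col1a1*. Right, log2 fold change against D0 by day: both components shared with *Col5a3* and both *M. musculus* genes lie above 0, and the component without *Col5a3* lies between -1.21 and -0.80.

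*Col9a1* (chr1:24177610-24252684, plus strand), a chain of the type IX collagen that coats the type II fibril, fell early and rose late in both species. In *A. cahirinus* the D0 libraries held 89.5, 89.3 and 59.2 normalised reads and the D5 libraries 32.5, 31.5 and 34.2, below all of D0. The D10 libraries, at 36.3, 46 and 79.4, overlapped D0, and the D15 libraries, at 114 and 95.9, were above it. The log2 fold changes were -1.27 at D5 and 1.5 at D20, both called, with -0.55 and 0.36 between them not called. The *M. musculus* D0 libraries held 181, 153 and 203 and the D5 libraries 89.4, 87.2 and 120. The D10 libraries, at 186, 139 and 233, and the D15 libraries, at 142, 348 and 270, overlapped D0. The called log2 fold changes were -0.86 at D5 and 0.77 at D20, and the values of 0.06 and 0.50 between them were not called.

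*Col11a2* (chr17:34039437-34066685, plus strand) encodes a chain of type XI collagen, which lies in the core of the fibril. In *M. musculus* the D0 libraries held 359, 377 and 465 normalised reads and the D5 libraries 159, 189 and 177. The log2 fold change was -1.19 at D5 and 0.48 at D20, both called, and -0.40 and -0.24 between them, not called. The D15 libraries, at 186, 435 and 399, overlapped D0, and without the lowest of them the D15 value was 0.06. In *A. cahirinus* the component shared with *Col24a1* had log2 fold changes of -1.14, -0.96, -0.59 and -0.65, of which the 2 earlier were called. The component without *Col24a1* held 46.3, 34.2 and 30.6 at D0 and between 4.8 and 12.7 in every later library, with called log2 fold changes of -1.76, -2.15, -2.0 and -1.72. *Col24a1* itself rose in *M. musculus*, with log2 fold changes of 1.33, 2.14, 2.41 and 1.82.

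*Col10a1* (chr10:34389981-34397085, plus strand), the chain of type X collagen, had few reads in its top-scoring *A. cahirinus* component, at 6.44, 4.61 and 11 normalised reads in the D0 libraries. Its D5 libraries held 11, 10.2 and 10.8, its D15 libraries 23.3 and 21.4 and its D20 libraries 8.95, 6.49 and 7.87. The D15 libraries were above D0 and those of D5 and D20 overlapped it, and no day was called, with log2 fold changes of 0.51, 0.54, 1.54 and 0.08. The gene had 3 other components there, of which 2 had higher D0 means, of 20.3 and 15.8, and none was called on any day. Summed over its 4 components, the log2 fold changes were -0.41, -0.11, 0.14 and -0.45, so the direction depended on the component read. The *M. musculus* D0 libraries held 162, 260 and 277, the D5 libraries 120, 78.1 and 106, the D10 libraries 124, 105 and 146 and the D15 libraries 98.1, 139 and 127. These later libraries were all below D0, and the log2 fold changes of -1.20, -0.90 and -0.94 were called. At D20 the libraries, at 181, 126 and 183, overlapped D0 and the value of -0.51 was not called.

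*Sox9* (chr11:112782224-112787760, plus strand), the transcription factor that switches on *Col2a1*, *Acan* and other cartilage genes and is also found in the hair follicle, fell on all 4 days in the top-scoring *A. cahirinus* component. The D0 libraries held 363, 268 and 255 normalised reads, the D5 libraries 143, 123 and 147 and the D15 libraries 126 and 125, with no overlap. The called log2 fold changes were -1.10, -1.51, -1.24 and -1.09. Of its 4 components there, the one with the most reads, with a D0 mean of 413, had log2 fold changes of -0.19, -0.40, -0.43 and -0.35 and was called on no day. Summed over the 4, the values were -0.64, -0.87, -0.78 and -0.66. In *M. musculus* the D0 libraries held 513, 547 and 606, and the later means were 183, 264, 350 and 540. The log2 fold changes of -1.60, -1.07 and -0.67 at D5, D10 and D15 were called, and that of -0.04 at D20 was not. The mean thus fell to its lowest at D5 in *M. musculus* and came back to near the D0 level at D20, while the mean of the top-scoring *A. cahirinus* component was 138 at D20 against 295 at D0.

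Of the 10 members, 3 were called lower on all 4 days in *A. cahirinus* (*Chad*, *Comp* and *Sox9*), where 0.389% of all components, and 1.38% of those with a mean of at least 10 in some group, were so called. The component of *Col11a2* without *Col24a1* was also lower on all 4 days, as was the second component of *Hapln1*, which had the higher D0 mean. The component of *Sox9* with the most reads was called on no day, so the count depends on the component read. *Col2a1* was the 1 member higher on all 4 days there, by the component shared with *Col5a3*, against 0.274% of components and 0.98% of those with a mean of at least 10. In *M. musculus*, 2 members fell on all 4 days (*Acan* and *Chad*), against 7.5% of all genes and 10.2% of those with a mean of at least 10. There 2 members rose on all 4 days (*Matn3* and *Col2a1*), against 6.62% and 9.01%. *Col9a1* and *Matn3* were called in both directions in *A. cahirinus*, and *Col9a1* and *Col11a2* in *M. musculus*.

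The wider cartilage programme was read from lists of 58 further genes, of which 46 had a value in *A. cahirinus* and 49 in *M. musculus*. In *A. cahirinus*, 11, 13, 12 and 13 of them rose on the successive days, and 18, 18, 13 and 15 fell. In *M. musculus*, 17, 18, 17 and 17 rose and 14, 13, 11 and 11 fell. The shares called among all features are those given with the members. A gene had no value where its number could not be placed, no component matched it or the comparisons did not list it. This need not mean that its RNA was absent. *Col11a1* and *Col27a1* had no value in either species. The median log2 fold change of the lists together was -0.26, -0.34, 0.01 and -0.07 in *A. cahirinus*, against -0.30, 0.15, 0.39 and 0.41 in the mouse. The *A. cahirinus* counts and medians include components with contigs of other genes. Among these, the one of *Col9a2* was called higher on 4 days and that of *Runx2* lower on 3. Those of *Mfap4* and *Ihh* are included as well.

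Of the cartilage collagens, *Col9a3*, another chain of type IX collagen, had log2 fold changes of -1.30, 0.01, 0.44 and 0.98 in *M. musculus*, of which D5 and D20 were called, as for *Col9a1*. In *A. cahirinus* it fell at D5 and D10 (-1.78 and -1.79), and the values of -1.05 and -0.73 at D15 and D20 were not called. *Col9a2*, the remaining chain, fell in *M. musculus* at D5 (-0.93) and rose at D20 (0.99). Its *A. cahirinus* component, called higher on all 4 days with values of 0.80 to 1.47, was shared with *Col18a1*, and only 2 of its 28 contigs with a hit matched *Col9a2* alone.

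Of the cartilage matrix proteins, 11 of 15 were measured in *A. cahirinus*, and 7, 7, 6 and 7 of these fell on the successive days, while 1, 1, 1 and 0 rose. The mouse had values for 13, of which 4 fell on each day and 3, 3, 2 and 1 rose. *Snorc*, *Cytl1*, *Cnmd* and *Susd5* fell on all 4 days in both species. *Cytl1*, a small protein secreted by chondrocytes, had a mean of 1703 normalised reads at D0 and of 242, 156, 149 and 206 after injury in *A. cahirinus*. Its mean in *M. musculus* was 6260 at D0 and 796, 573, 673 and 1514 after injury. Its log2 fold change was lowest at D15 in *A. cahirinus* (-3.51) and at D10 in *M. musculus* (-3.45). *Cnmd*, chondromodulin, which keeps vessels out of cartilage, had log2 fold changes of -2.63, -2.77, -2.13 and -1.84 in *A. cahirinus*, against -2.50, -1.45, -1.0 and -0.64 in *M. musculus*. *Snorc*, a membrane proteoglycan of chondrocytes, lay between -3.05 and -2.35 in *A. cahirinus*, and between -2.67 and -1.46 in *M. musculus*. For *Susd5* the ranges were -2.26 to -1.72, and -1.82 to -0.87.

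*Prg4*, which encodes the joint lubricant lubricin, rose at D5, D10 and D15 in *A. cahirinus* (2.65, 4.24 and 2.87) and at D5 and D10 in *M. musculus* (3.11 and 1.35). *Epyc*, a small leucine-rich proteoglycan of cartilage, fell in *A. cahirinus* on all 4 days (-1.32, -1.65, -1.8 and -1.65). It rose in *M. musculus* at D5, D10 and D15, where the mean went from 1.46 normalised reads at D0 to 6.90, 6.89 and 12.5. The other list member that rose in *M. musculus*, *Matn4*, is named after its values were seen. It encodes matrilin 4 and had called log2 fold changes of 0.71, 2.42, 2.55 and 3.17 there, and no call in *A. cahirinus*.

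Among the chondrocyte transcription factors, *Sox6*, a partner of SOX9, and *Mef2c*, which is also a muscle factor, fell on all 4 days in both species. The log2 fold changes of *Sox6* lay between -1.47 and -1.26 in *A. cahirinus*, and between -1.81 and -1.53 in *M. musculus*. *Sox5*, its close relative, fell on all 4 days in *M. musculus* (-2.18 to -1.14), and in *A. cahirinus* at D5, D10 and D15 (-1.14, -1.27 and -0.95). The D20 values of *Mef2c* were -1.75 and -1.41. *Sox6* at -1.53 and *Sox5* at -1.14 were thus still lower at D20 in *M. musculus*, where *Sox9* was at -0.04. *Runx2*, a factor of bone and of hypertrophic cartilage, rose in *M. musculus* (1.70, 1.96, 2.1 and 2.09). No *A. cahirinus* value is given for it, since 16 of the 30 contigs of its component matched *Tsc22d3* best. *Runx3* had log2 fold changes of -0.01 to 0.63 in *A. cahirinus*, none called, and fell in *M. musculus* at D10 (-0.44).

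Of the signalling genes, *Frzb*, a secreted inhibitor of WNT proteins found in cartilage, fell on all 4 days in both species, with log2 fold changes of -2.42 to -2.01 in *A. cahirinus*, against -3.82, -3.01, -2.94 and -1.84 in the mouse. *Pth1r*, the receptor for parathyroid hormone and its related peptide, rose in *M. musculus* at D10, D15 and D20 (1.59, 1.72 and 1.58). In *A. cahirinus* it fell at D5 (-0.96) and rose at D15 (0.74) and D20 (0.85). The *A. cahirinus* component taken for *Ihh*, a signal of maturing chondrocytes, matched *Shh* better. It was listed at 0 at D0, reached a mean of 13.1 at D20 and was not called on any day.

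The enzymes that build chondroitin sulfate, the sugar chain of aggrecan, moved in both directions. *Chsy1*, a chondroitin synthase, rose in both species on all 4 days, with log2 fold changes of 1.13 to 1.67 in *A. cahirinus*, against 1.76 to 2.19 in the mouse. *Chsy3* rose at D10, D15 and D20 in *A. cahirinus* (3.10, 2.55 and 2.24), and on all 4 days in *M. musculus* (0.73 to 1.36). *Papss2*, which makes the sulfate donor, fell on all 4 days in *A. cahirinus* (-0.83 to -0.53) and was not called in *M. musculus* (-0.33 to -0.10). *Chst3*, a chondroitin sulfotransferase, fell in *M. musculus* at D5 (-1.45) and D10 (-0.84). In *A. cahirinus* it rose at D10 (1.12), and the values of 0.97, 0.98 and 0.71 on the other days were not called.

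Of the enzymes that cut aggrecan and collagen, *Adamts4*, an aggrecanase, rose on all 4 days in both species. Its log2 fold changes were 1.13 to 2.22 in *A. cahirinus*, from a D0 mean of 89.7 normalised reads, and 3.83 to 4.79 in *M. musculus*, from 9.31. Of the 24 contigs with a hit in its *A. cahirinus* component, 21 matched *Adamts4* best. *Adamts5*, from the same list, is named after its values were seen. It was called lower on 2 days in *A. cahirinus*, with a mean log2 fold change of -0.41 over the 4 days. In *M. musculus* it was called higher on all 4 days, with a mean of 0.55. *Mmp3* rose on all 4 days in both species, with values of 5.83, 4.03, 2.36 and 2.12 in *A. cahirinus*, against 1.78 to 2.24 in the mouse. *Mmp13*, the collagenase of type II collagen, rose on all 4 days in *A. cahirinus* (6.44, 7.14, 6.02 and 5.03), where the mean went from 4.95 at D0 to 743 at D10. It rose at D5, D10 and D15 in *M. musculus*, where its mean went from 1.46 to 46.5, 62.1 and 58.1. *Timp3*, an inhibitor of these enzymes, fell on all 4 days in both species, with a D20 value of -1.90 in *A. cahirinus*, against -0.35 in the mouse. These proteases are also made by skin and immune cells in wounds.

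Of the hypertrophy and mineralization genes, *Spp1*, osteopontin, which macrophages also make, rose on all 4 days in *A. cahirinus* (5.45, 4.34, 3.42 and 2.78), and at D5 and D10 in *M. musculus* (3.68 and 2.46). *Panx3*, a channel of hypertrophic chondrocytes, fell in *M. musculus* on all 4 days (-2.37 to -1.74), and *Ibsp*, bone sialoprotein, rose in *A. cahirinus* at D20 (2.18), from a mean of 7.61. In the other species neither was called, with a *Panx3* mean of at most 6.62 in *A. cahirinus* and an *Ibsp* mean of at most 4.04 in *M. musculus*. *Eln*, elastin, the fibre that marks ear cartilage but is also made by skin and vessels, rose in *M. musculus* at D10, D15 and D20 (1.74, 2.62 and 2.66). In *A. cahirinus* its log2 fold changes of -1.74, -1.12, -0.56 and -0.57 were not called, and 4 of the 5 contigs with a hit matched it best. *Fbn1*, fibrillin 1, rose in both species on all 4 days (0.47 to 1.31 in *A. cahirinus*, 2.07 to 2.72 in *M. musculus*), and *Mfap4* rose on all 4 days in *M. musculus* (0.53 to 2.17).

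**Figure D4:**
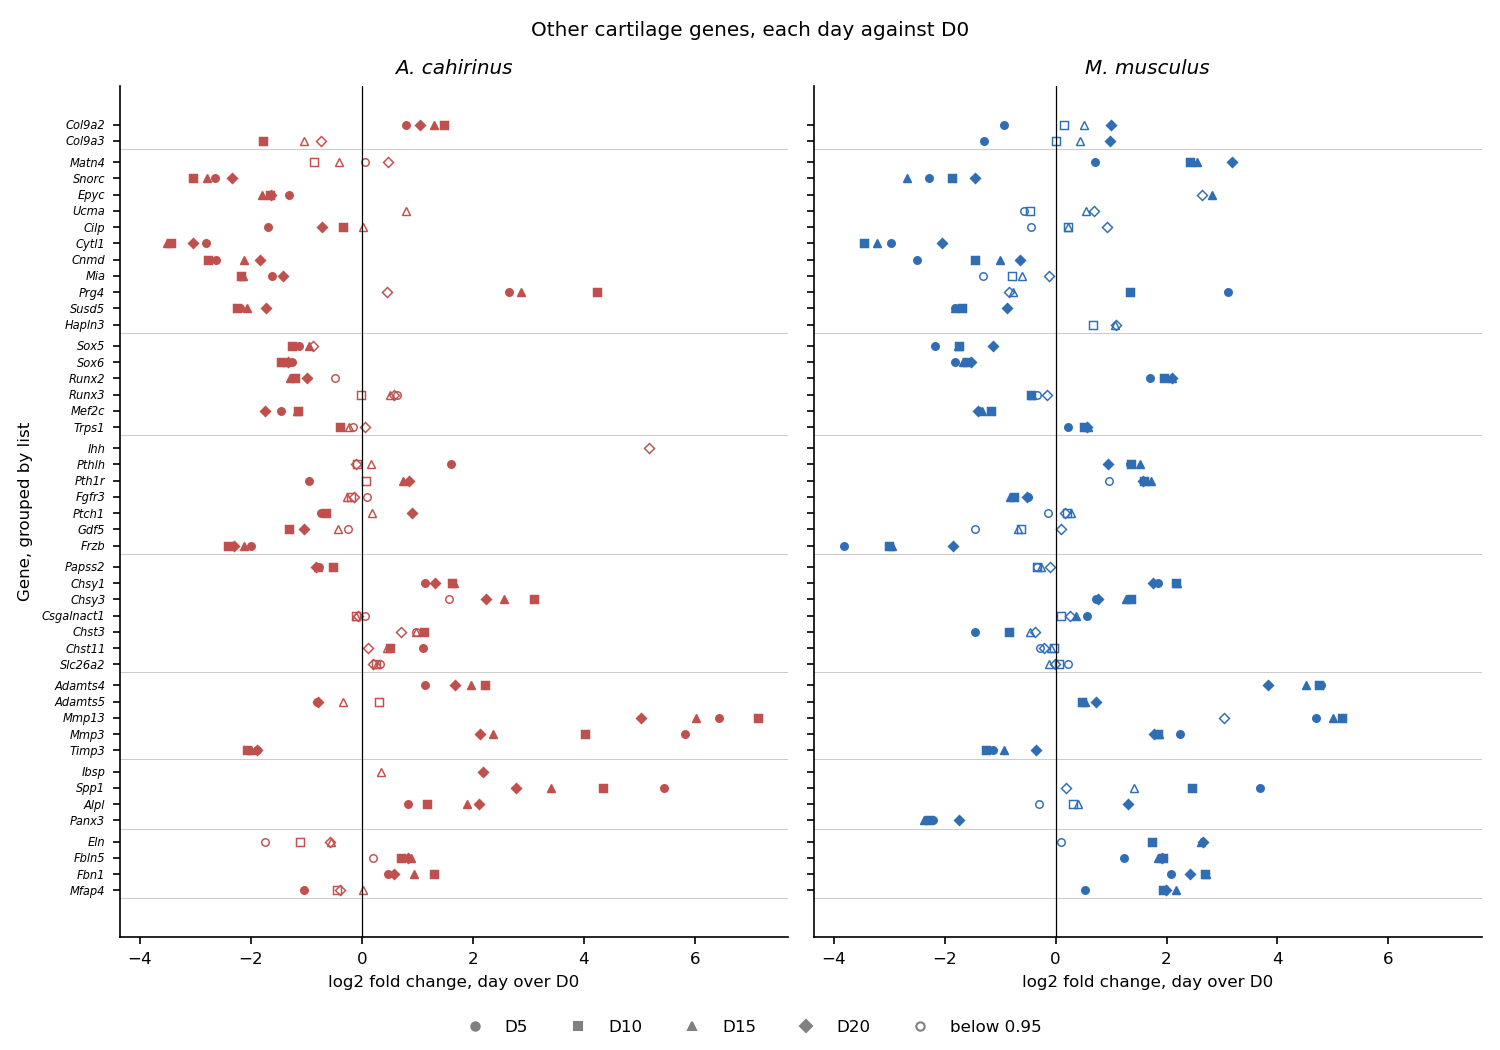
Log2 fold change against D0 of the other cartilage genes, grouped by list, in *A. cahirinus* (left) and *M. musculus* (right), with a symbol for each day, filled where called, and drawn only where a group mean reached 10. *Snorc*, *Cytl1*, *Cnmd*, *Susd5* and *Frzb* lie below 0 at every time point in both species, and *Chsy1*, *Adamts4*, *Mmp3* and *Fbn1* lie above it.

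Markers of other tissues in the ring also changed. Of 24 marker genes of muscle, fat, dermal fibroblasts, epidermis, macrophages and tendon, 19 were measured in each species. In *A. cahirinus*, 5, 7, 5 and 2 of them rose and 8, 8, 9 and 9 fell on the successive days. The mouse counts were 5, 7, 6 and 6 that rose and 9, 9, 8 and 6 that fell. No defining marker with a value was at 0 in any group. The fibroblast markers *Col1a1* and *Pdgfra* were given no value in either species, under the rules given with the cartilage lists. The study's primer list names a contig of 1 *A. cahirinus* component as *Col1a1*. The *M. musculus* gene number that this component matched best was left without a name here, so it is not among the markers. Its log2 fold changes were -0.58, 2.08, 2.96 and 2.51 from D5 to D20, called at D10, D15 and D20. The muscle genes *Ckm*, *Myh4* and *Tnnt3* fell on all 4 days in both species, with log2 fold changes of -3.99 to -2.38 in *A. cahirinus*, against -4.16 to -2.96 in the mouse. *Acta1* fell as well in *M. musculus* (-2.36 to -1.74). The summed muscle level was 69520 normalised reads at D0 and 47378, 38442, 33393 and 23273 after injury in *A. cahirinus*, where 1 of the 93 contigs with a hit in the component taken for *Acta1* matched it best and 42 matched *Acta2*. Without *Acta1* the sum was 50410 at D0 and 5634, 7189, 8601 and 4541 after injury. Of the contigs with a hit in the remaining components, 1 of 5 matched *Ckm* best, with 4 for *Ckb*, and 30 of 37 matched *Myh4*. The sum in *M. musculus* was 30683 at D0 and 4516, 4816, 4076 and 3049 after injury, and without *Acta1* it was 24270 at D0 and 2591, 2936, 2482 and 1798 after injury.

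The summed fat level was 7523 at D0 and 4159, 2355, 1677 and 1343 after injury in *A. cahirinus*. It was 1045 at D0 and 582, 446, 502 and 877 after injury in *M. musculus*. *Cfd* fell on all 4 days in both species, and *Adipoq* and *Plin1* did so in *A. cahirinus*, and at D5, D10 and D15 in *M. musculus*. The summed level of the fibroblast genes *Col3a1* and *Dpt*, nearly all of it *Col3a1*, went from 13803 at D0 to 16139, 94824, 116022 and 89574 in *A. cahirinus*. At D5 *Dpt* fell there (-1.05) and *Col3a1* was not called (0.25), and both rose at D10, D15 and D20. The *M. musculus* sum went from 23014 to 101438, 195619, 219249 and 211613, and *Col3a1* rose there on all 4 days, with *Dpt* not called at D5 (-0.08) and higher on the other days. The epidermal sum of *Krt14* and *Krt10* was highest at D5, at 40615 against 24191 at D0 in *A. cahirinus*, with 134450 against 51653 in *M. musculus*. *Krt14* rose at D5 in both species (1.29 and 2.25) and fell at D15 and D20 in *A. cahirinus* (-0.63 and -0.74). *Krt10* fell at D20 in *M. musculus* (-0.43) and was called on no other day in either species. The macrophage sum was also highest at D5, at 3913 against 1585 and at 1769 against 720, and *Csf1r* and *Adgre1* rose on all 4 days in *M. musculus*. In *A. cahirinus* *Csf1r* rose at D5 and D10 and *Adgre1* at D5, D10 and D15. The *A. cahirinus* sums rest in part on shared components, since 10 of 31 contigs with a hit matched *Krt14* best (11 matched *Krt15*), and 52 of 152 in the component of *Csf1r* matched *Cdc73*.

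The tendon sum lay between 2097 and 3365 in *A. cahirinus*, and between 2614 and 3801 in *M. musculus*. Of the 30 contigs with a hit in the *A. cahirinus* component of *Scx*, 26 matched *Atp6v1c1* best. *Tnmd*, a tendon membrane protein, fell on all 4 days in *A. cahirinus* (-2.47 to -1.65) and rose in *M. musculus* at D10, D15 and D20 (1.23, 1.47 and 1.46). *Thbs4* rose on all 4 days in *M. musculus* (1.34 to 2.29), and in *A. cahirinus* at D10 and D15 (0.75 and 0.59). The component taken for *Scx* was called higher in *A. cahirinus* at D5 and D10 (0.61 and 0.35), and *Scx* in *M. musculus* at D10 (1.78). *Fmod* fell in *M. musculus* at D5 and D10 (-1.33 and -0.57) and was not called in *A. cahirinus*, and *Mkx* was called in neither species. The summed level of the 10 cartilage members was 7376 at D0 and 4631, 7250, 6826 and 5418 after injury in *A. cahirinus*. The same sum in *M. musculus* was 6882 at D0 and 3500, 5358, 5407 and 6787 after injury. The *A. cahirinus* sum includes the *Col2a1* component shared with *Col5a3*. Without *Col2a1* the sum was 6740 at D0 and 3432, 3766, 3874 and 3409 after injury in *A. cahirinus*. In *M. musculus* it was then 6704 at D0 and 3002, 4197, 3880 and 5160 after injury. The part of changing tissue make-up in the values of the cartilage genes was not tested.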

How the data were processed

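Total RNA was extracted from ear tissue with Trizol and sequenced as strand-specific libraries with reduced ribosomal RNA (paired reads of 50 bp). The authors assembled an *A. cahirinus* transcriptome with Trinity, estimated reads per gene with RSEM and Bowtie, for *M. musculus* against mm10 genes, and compared each time point with D0 by EBSeq. RSEM and mm10 are also named in the submitters' processing notes. Each table deposited by the authors gives 2 fold changes (ratios of D0 to the later day) and a posterior probability, a score from 0 to 1. The deposited BLASTN table of the authors lists percent identity, alignment length in bp and a bit score (recorded as other). These columns are the authors' own comparisons and are used because the tables hold no values per animal; no count test was run.

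The fold changes were inverted, and positive log2 values stand for higher levels after injury. The log2 fold change printed is that of the posterior fold change, which is drawn towards 0 for genes with few reads. Because the 2 fold changes differ in the constant they add, both group means follow from them. D0 reads per library were solved from the 4 tables of a species, and 99.5% of 205865 *A. cahirinus* and 95.7% of 16363 *M. musculus* features with a sufficient mean came out as multiples of 0.01 read. RSEM splits reads between similar transcripts, so 85.3% and 45.1% were whole. Later libraries were solved only where a unique set of reads gave the mean, which was so for 44.9% to 100% of the features tried. On simulated data with 23023 genes of *M. musculus*, the D0 reads of all libraries were right for 99.85% of the 16363 genes checked. Of 600 library sets, 471 were solved with 0 wrong. The simulated fold changes were written with the formulas that the recovery assumes, so the formulas themselves were not tested.

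The *M. musculus* features are numbered genes, whose names were placed along the deposited reference sequences from 1992 known pairs with a hidden Markov model and minimap2 2.31 matches to GENCODE transcripts (GRCm38). Of 1712 known pairs held out and placed at a posterior of at least 0.9, 1707 were right (99.7%), and 280 were not placed. Members had posteriors of 0.968 to 1. BLASTN hits at 99% identity or more were not used to pick components. Positions are whole genes on GRCm38, and sequences are coding stretches from the assembly and the GENCODE transcripts.

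The call threshold was a posterior probability of 0.95. The members and the gene lists were chosen with earlier results of these data known, and the genes named from the cartilage lists were those with the highest and lowest mean log2 fold change in a species, where a group mean reached 10, and those called on all 4 days in both species. From the lists of other tissues, genes called on all 4 days in a species were named, and *Scx*, *Fmod*, *Mkx*, *Krt14* and *Krt10* were added after their values were seen. *Matn4* and *Adamts5* from the cartilage lists were added in the same way. Other genes of those lists, not described above, were also called on all 4 days in 1 species. In *A. cahirinus* these were *Mia*, lower, and *Alpl*, higher. In *M. musculus* they were *Pthlh*, *Trps1* and *Fbln5*, higher, and *Fgfr3*, lower. The *A. cahirinus* components of *Col9a2*, *Runx2*, *Mfap4*, *Ihh*, *Adamts4*, *Eln*, *Acta1*, *Ckm*, *Myh4*, *Krt14*, *Csf1r* and *Scx* held contigs of other genes. Alternatives were a posterior probability of 0.99, a group mean of 10 or more, an absolute log2 fold change of 1 or more, the second fold change, a pseudocount of 1, centring on the median feature, summed components, reciprocal best hits and leaving out single libraries. Components without *Col5a3* and *Col24a1* and the repeated D15 library counted once were added after seeing the data. Analyses used Python 3.11.15, NumPy 2.4.6 and pandas 2.3.3.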

Additional observations from a re-analysis of the deposited data

Results flagged for a closer look

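Some members had all libraries of one species on one side of their D0 group and all those of the other species on the opposite side. This could be seen only on days when the libraries of both species were solved, which was never so for *Acan* and *Sox9*. How often it occurs among all features was not counted, so these cases are descriptive. The difference between the species was not tested in any of them. The log2 fold change of *Matn3* at D5 was lower in *A. cahirinus* than in *M. musculus* by -2.24, and that of *Comp* at D5 by -1.39 (-1.385 before rounding). Both genes were called in both species at D5. The log2 fold change of *Col10a1* at D15 was higher in *A. cahirinus* by 2.48, where the 2 distinct D15 libraries held 23.3 and 21.4 normalised reads, the D0 mean was 7.36 and the change was not called. Summed over the 4 components of *Col10a1*, the *A. cahirinus* value at D15 was 0.14 in place of 1.54. *Col2a1* at D5 showed the same when read from the component without *Col5a3*. Its D5 libraries in *A. cahirinus* held 98.5, 88.5 and 110 normalised reads, below D0 at 126 to 201, and those of *M. musculus* held 458 to 576, above D0 at 130 to 226.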

How the results depend on the processing

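The counts of called members were within 1.5 times of those given under a posterior probability of 0.99, a least mean of 10 and the removal of components that were not reciprocal best hits, which left out *Col2a1* in *A. cahirinus*. At 0.99 the calls of *Acan* at D5 and D20 and of *Matn3* at D10 and D20 in *A. cahirinus* were lost, as was that of *Sox9* at D15 in *M. musculus* (posterior probability 0.989), so *Acan* then had no call in *A. cahirinus* and *Matn3* only its fall at D5. The call at D20 of the *Col2a1* component without *Col5a3* (0.962) was also lost. With a log2 fold change of at least 1 required as well, the counts fell from 8 to 5 in *A. cahirinus* at D5, and in *M. musculus* from 8 to 5 at D10, from 7 to 4 at D15 and from 6 to 3 at D20. The sign of *Col2a1* in *A. cahirinus* reversed with the component without *Col5a3* on all 4 days, to -0.80, -1.21, -0.96 and -0.96. The second fold change, a pseudocount of 1 and centring on the median feature left the sign of each of 80 log2 fold changes and moved none by more than the spread between libraries.

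Summing the components of a gene moved 8 of 40 values in *A. cahirinus*, among them all 4 days of *Sox9* (-0.64, -0.87, -0.78 and -0.66). It took *Col10a1* from 0.51, 0.54, 1.54 and 0.08 to -0.41, -0.11, 0.14 and -0.45, with no component called on any day. A value counted as moved when it shifted by more than the spread between libraries. Leaving out 1 of 3 libraries cannot shift a mean that far. The count of 0 of 240 values moved without a D0 library was thus fixed in advance and does not measure stability. Leaving out a later library moved 1 of 131 values (*Chad* at D15 in *A. cahirinus*, -2.6 instead of -2.17), in the group with 2 distinct libraries. Calls could not be recomputed without a library. Without the lowest *M. musculus* D15 library, the log2 fold changes at D15 were 0.32 for *Comp* and 0.79 for *Col9a1*. With the repeated D15 library counted once, *Matn3* at D15 was 0.09 in place of -0.04, and neither is a called change. No paired analysis was possible because the libraries solved from the tables carry no animal number. Few reads stand behind *Col10a1* in *A. cahirinus*, whose D0 means in its 4 components were 7.36, 2.31, 20.3 and 15.8 normalised reads.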
